A study of Mus musculus with 4 samples.

Results

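The genes described here encode the machinery that brings new proteins into the endoplasmic reticulum (ER), adds sugar chains to them, folds them, and signals when folding falls behind. The list holds 39 genes, taken by name, and was chosen with earlier results of these data known. Of these, 38 had a probe set (a group of probes for one transcript) that the platform annotation pairs with 1 gene only, out of 18193 such genes on the array, and 105 probe sets in all matched them. Sec61g was not analysed here, because its probe set is shared with other gene names. Each gene was represented by its brightest probe set, and 37 of the 38 reached the brightness filter (an intensity of 106, the median of all probe sets), which 11614 genes passed. Sdf2l1, a chaperone cofactor, was dim, with intensities of 59.7 and 107 in spleen, against 51.4 and 70.4 in blood, and was not tested. The genes Ero1a and Ero1b stand in the list under their older names Ero1l and Ero1lb.

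The samples were leukemic blasts of a murine M7 (megakaryoblastic) leukemia obtained by retroviral insertional mutagenesis of fetal progenitors whose Gata1 is mutant (Gata1s in the series title). The retrovirus carried a GFP reporter, and blasts were sorted as GFP-positive from spleen and from peripheral blood of the same 2 untreated mice, 1 array per tissue and mouse. Both mice bear one leukemia designation, and all 4 arrays share the Gata1 mutation and the virus, so there is no normal or Gata1 wild-type reference. The labels do not say whether the mice carry one clone, nor give their age or strain. Array medians lay between 103.7 and 110.6, and log2 values of pairs of arrays correlated between 0.96 and 0.98 across tested genes, which are not independent replicates. Among megakaryocyte markers, the platelet chemokine Pf4 had intensities of 8341 and 8680 in spleen, against 7507 and 7767 in blood, and the platelet integrin chain Itga2b had 4237 and 4990 in spleen, against 4247 and 4512 in blood. The integrin chain Itgb3 was dim, with 39.7 and 123 in spleen, against 15.9 and -4.17 in blood.

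Secreted and membrane proteins enter the ER through the Sec61 channel, assisted by the TRAP complex, while the oligosaccharyltransferase attaches sugar chains to the growing polypeptide. Chaperones such as BiP (Hspa5), Grp94 (Hsp90b1), calnexin (Canx) and calreticulin (Calr) then hold the chain while protein disulfide isomerases form its disulfide bonds. When unfolded proteins build up, the sensors Ire1 (Ern1), Perk (Eif2ak3) and Atf6 start the unfolded protein response, in which Ire1 splices the Xbp1 transcript and the genes of chaperones and of ER-associated degradation are induced. Megakaryocytes make large amounts of membrane glycoproteins and granule proteins that pass through this route.

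A sequence in the promoters, which did not enter the choice of the members, was found in some of them. The ER stress element (ERSE), which is CCAAT, 9 bases of any kind and CCACG, is known as a site through which Atf6 and the factor NF-Y act on chaperone genes. It was searched on both strands from 250 bases before to 50 bases after the transcript start, in RefSeq promoters of mouse build GRCm38.p6. Of 34 members with a promoter in the table, 8 held it (23.5%), whereas 37 of all 27025 genes with a promoter did (0.137%). The element is known from chaperone genes, which the list holds, so the higher share among the members is not an independent finding. The related element ERSE-II (ATTGG, 1 base of any kind and CCACG) lay in 2 members, Herpud1 and Dnajb11, and in 0.0444% of all genes with a promoter. No member held both elements, and most members held neither. The 250 bases before the start are shown, 5′ to 3′ on the gene's strand with the ERSE in capitals. They are given for 3 members with an ERSE and a larger difference of spleen minus blood, and for 2 with a smaller one, Hspa5 and Calr. The windows are chr11:50325674-50325923 (minus strand), chr12:17266339-17266588 (plus), chr10:86705445-86705694 (minus), chr2:34771840-34772089 (plus) and chr8:84846932-84847181 (minus).
Canx: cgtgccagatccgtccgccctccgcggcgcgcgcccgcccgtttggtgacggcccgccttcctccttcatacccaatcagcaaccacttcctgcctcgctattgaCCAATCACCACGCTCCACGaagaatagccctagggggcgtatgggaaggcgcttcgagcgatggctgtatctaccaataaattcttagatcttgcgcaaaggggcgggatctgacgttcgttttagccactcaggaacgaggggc
Pdia6: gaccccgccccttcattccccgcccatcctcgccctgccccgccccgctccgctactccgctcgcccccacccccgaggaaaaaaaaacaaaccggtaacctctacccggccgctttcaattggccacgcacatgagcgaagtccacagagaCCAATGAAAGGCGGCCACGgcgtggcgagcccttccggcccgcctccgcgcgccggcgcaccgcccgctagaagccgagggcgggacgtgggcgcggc
Hsp90b1: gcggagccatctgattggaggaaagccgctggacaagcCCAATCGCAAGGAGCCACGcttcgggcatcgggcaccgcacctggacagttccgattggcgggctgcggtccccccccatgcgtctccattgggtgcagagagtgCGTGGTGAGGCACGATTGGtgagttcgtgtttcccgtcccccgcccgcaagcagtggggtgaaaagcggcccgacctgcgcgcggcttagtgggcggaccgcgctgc
Hspa5: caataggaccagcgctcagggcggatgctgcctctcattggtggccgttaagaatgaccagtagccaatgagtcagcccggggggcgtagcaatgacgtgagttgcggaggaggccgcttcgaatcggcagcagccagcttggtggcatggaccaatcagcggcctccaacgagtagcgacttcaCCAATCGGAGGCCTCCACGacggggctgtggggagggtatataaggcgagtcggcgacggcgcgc
Calr: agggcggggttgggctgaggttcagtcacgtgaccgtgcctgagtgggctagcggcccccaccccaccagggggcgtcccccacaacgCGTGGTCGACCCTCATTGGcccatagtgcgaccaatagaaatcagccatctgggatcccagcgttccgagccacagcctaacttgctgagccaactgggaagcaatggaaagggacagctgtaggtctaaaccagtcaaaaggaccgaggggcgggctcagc

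Counted from the transcript start, the ERSE covered bases -145 to -127 in Canx, -98 to -80 in Pdia6, -65 to -47 in Hspa5 and -162 to -144 in Calr. Hsp90b1 held it at -212 to -194 and, on the opposite strand, at -107 to -89. The Calr element also lay on the opposite strand. The other members with an ERSE were Dnajc3, Creld2 and Ero1b. A match describes these letters and does not show that a factor binds there.

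Blasts in the spleen were compared with those in the blood to ask how this machinery differs between the sites. Most of the genes were higher in spleen, by small amounts, with calnexin at the top. Of the 37 tested members, 26 were higher in spleen in both mice, against a background of 38.5% of all tested genes, and 2 were lower in both, against 25.1%. The median difference of spleen minus blood was 0.16 on the log2(intensity + 16) scale, which understates changes of dim genes, beside 0.03 for all tested genes. It was 0.19 in mouse 1 and 0.09 in mouse 2, beside 0.07 and 0.01 for all tested genes. In 22 members both spleen arrays lay above both blood arrays (background 27.5%), and in 1 member, Atf6, both lay below (background 17.6%).

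No single member passed the test. With limma, 0 of 37 members and 0 of 11614 genes (0%) had an adjusted p under 0.05, and the smallest adjusted p of a member was 0.173, for Canx. With a prior that follows intensity, the adjusted p of Canx was 0.049. At an unadjusted p under 0.05, 10 members were higher in spleen and 0 lower, against 8.12% and 4.31% of all tested genes. That count was 5 with quantile normalization. It was 4 when the blood array of mouse 1 was left out, and 3 when either array of mouse 2 was. The members are bright, and bright genes were more often higher in spleen: among tested genes at least as bright as the median member, a comparison added after the data were seen, 50.4% were higher in both mice, and 16 of the 19 members among them were, while 19.7% were lower in both and 0 of the 19 members were. The same genes had an unadjusted p under 0.05 with a higher level in spleen in 9.49%, and 7 of the 19 members did; a lower level at that p was found in 3.03%, and in 0 members. With 1 sorted sample per tissue and mouse, a change in the level per cell and a change in which cells were sorted cannot be told apart.

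**Figure D1:**
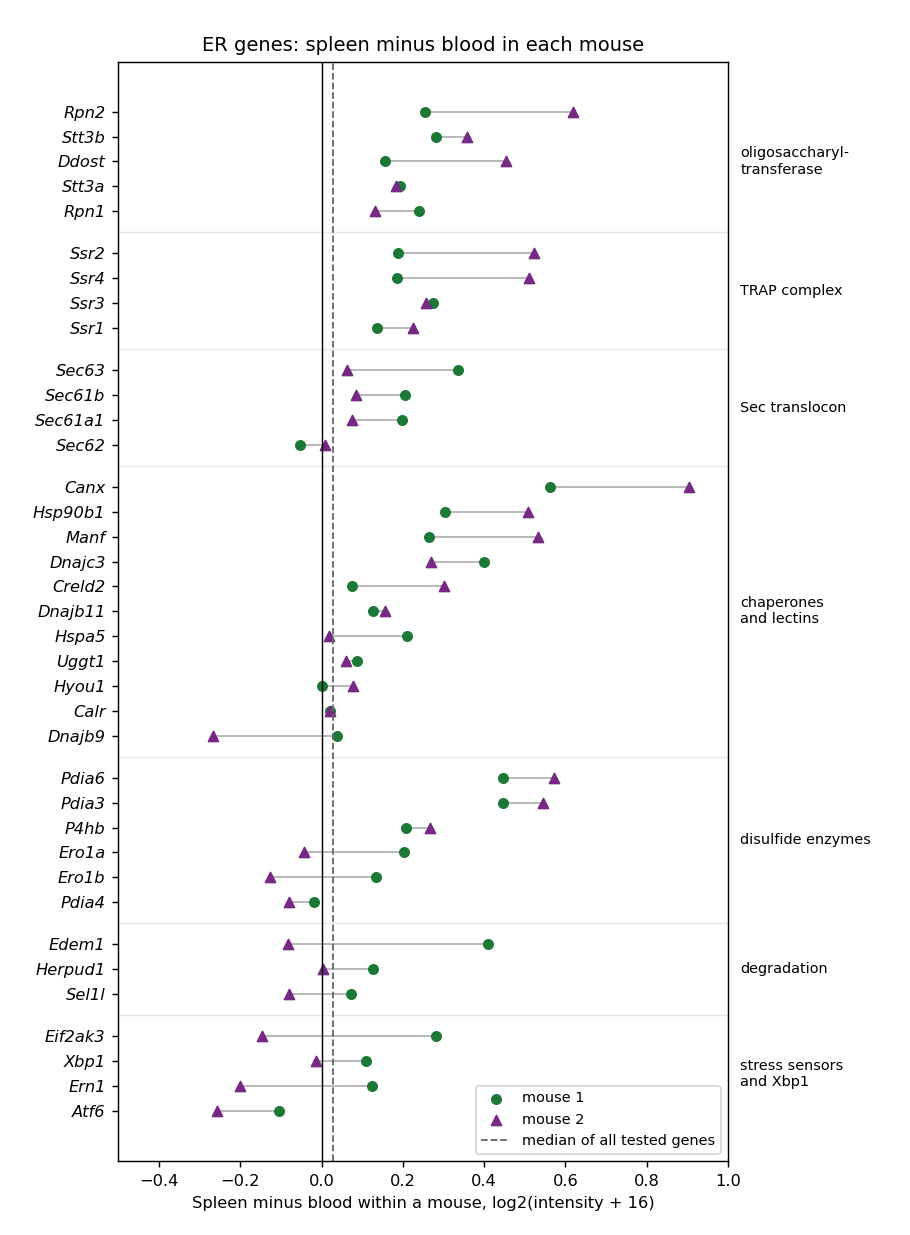
Difference of spleen minus blood in log2(intensity + 16) for the 37 tested ER genes, by role, with circles for mouse 1 and triangles for mouse 2 and a dashed line at the median of all tested genes (0.03). All 9 members of the oligosaccharyltransferase and TRAP groups lie right of 0 in both mice (background 38.5%), and 3 of the 4 stress sensors and Xbp1 lie on opposite sides of 0 in the mice.

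The subunits of the oligosaccharyltransferase, which transfers the sugar chain to asparagine residues, lay above blood in each mouse in 5 of 5 cases (background 38.5%). Among tested genes at least as bright as the median member, that background was 50.4%. The median difference of the subunits was 0.30. Rpn2, a structural subunit, had intensities of 2009 and 2489 in spleen of mouse 1 and mouse 2, against 1680 and 1615 in blood. Both spleen arrays lay above both blood arrays, and the difference was 0.44 ± 0.14 (SE, n = 2 arrays per tissue, limma adjusted p = 0.340). Stt3b, a catalytic subunit, had 3447 and 3593 in spleen, against 2833 and 2801 in blood, a difference of 0.32 ± 0.11 (adjusted p = 0.350). The groups of Stt3b did not overlap, and its spread between mice within a tissue was the smaller. The other catalytic subunit, Stt3a, differed by 0.19 ± 0.11, Ddost by 0.30 ± 0.12 and Rpn1 by 0.19 ± 0.11. Both spleen arrays lay above both blood arrays in all 5 genes (background 27.5%).

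The TRAP complex sits beside the Sec61 channel and helps some chains to enter it. It was likewise higher in both mice in 4 of 4 subunits (background 38.5%), with a median of 0.31. Ssr2 had 1676 and 1957 in spleen, against 1468 and 1358 in blood, and differed by 0.36 ± 0.13 (adjusted p = 0.366). Ssr4 had 2639 and 2699 in spleen, against 2319 and 1889 in blood, and differed by 0.35 ± 0.14 (adjusted p = 0.391). In both genes the arrays of mouse 2 lay further apart than those of mouse 1. Ssr3 differed by 0.27 ± 0.11 and Ssr1 by 0.18 ± 0.11. The result for Ssr4 rests on its bright probe set, since the other 2 were lower in spleen in both mice, with mean differences of -0.06 and -0.25, and the mean over all 3 gave 0.01.

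The Sec61 channel subunits and their partners Sec62 and Sec63 had a median of 0.14 over 4 measured members. That median was 0.088 without the blood array of mouse 1 and 0.072 with quantile normalization. Sec61a1, the pore subunit, had 2579 and 2555 in spleen, against 2247 and 2425 in blood (0.14 ± 0.11, 95% interval -0.14 to 0.41). Sec61b, a small channel subunit, had 4475 and 4417 in spleen, against 3877 and 4162 in blood (0.15 ± 0.11). Sec63, which recruits BiP to the channel, had 393 and 345 in spleen, against 309 and 329 in blood (0.20 ± 0.12). In each of these 3 genes the spleen arrays were above the blood arrays and the gap was wider in mouse 1. Sec62, the partner of Sec63, differed by -0.02 ± 0.12. The probe sets of Sec61a1 disagreed: of 6, 3 were higher in both mice and 1 was lower in both. Their mean differences ran from -0.13 to 0.88, the last on its dimmest probe set. A brighter one, with 525 and 714 in spleen, against 375 and 357 in blood, had 0.72. The mean over all 6 gave 0.27, so the small difference of Sec61a1 depends on the probe set used.

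Among chaperones and lectins, 10 of 11 tested members were above blood in each mouse (background 38.5%), with a median of 0.14. Canx, the membrane-bound lectin that holds new glycoproteins, had 4324 and 4526 in spleen, against 2925 and 2410 in blood. The spleen arrays were 1.48 times the blood array in mouse 1 and 1.88 times in mouse 2, and the log2 difference was 0.73 ± 0.14 (95% interval 0.40 to 1.07, adjusted p = 0.173), above 99.3% of all tested genes. All 3 probe sets of Canx were higher in both mice, with mean differences of 0.27, 0.72 and 0.73. Calr, the soluble relative of Canx, had 5876 and 6157 in spleen, against 5792 and 6064 in blood. Its difference was 0.02 ± 0.11 (95% interval -0.25 to 0.29), and the arrays grouped by mouse rather than by tissue.

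Hsp90b1, the ER form of the Hsp90 chaperone, had 2355 and 2866 in spleen, against 1904 and 2010 in blood, and differed by 0.41 ± 0.14 (adjusted p = 0.349), with no overlap. Hspa5, the central ER chaperone and an early target of the unfolded protein response, had 3647 and 3492 in spleen, against 3151 and 3448 in blood. Its spleen arrays were the higher, but in mouse 2 the gap was 0.02, and the difference was 0.11 ± 0.12 (95% interval -0.17 to 0.40). All 3 probe sets of Hspa5 were higher in both mice, with mean differences of 0.11, 0.12 and 0.35. Manf, a secreted factor that binds Hspa5, differed by 0.40 ± 0.12 (adjusted p = 0.317), and Dnajc3, an Hspa5 cochaperone, by 0.33 ± 0.14. Dnajb11, another Hspa5 cochaperone, differed by 0.14 ± 0.11, and Hyou1, which exchanges the nucleotide of Hspa5, by 0.04 ± 0.11. The gap of Hyou1 in mouse 1 was 0.002. Its other probe set above the filter was lower in spleen in both mice, at -0.24 in mouse 1 and -0.12 in mouse 2. Uggt1, which marks misfolded glycoproteins for another round of folding, had 658 and 730 in spleen, against 618 and 700 in blood (0.07 ± 0.13), so that the mice differed more than the tissues. Creld2, a stress-induced ER protein, had 240 and 325 in spleen, against 228 and 261 in blood (0.19 ± 0.17), and its tissues overlapped. The exception in direction was Dnajb9, an Hspa5 cochaperone that restrains Ire1, at 0.04 in mouse 1 and -0.27 in mouse 2.

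**Figure D2:**
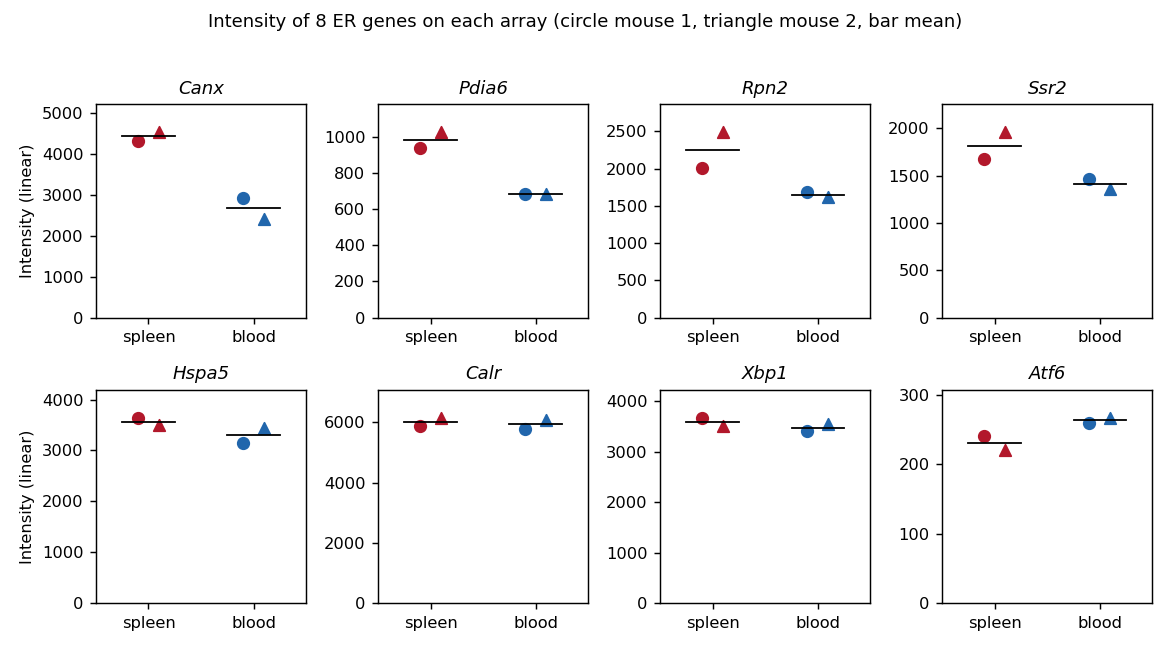
Linear intensity of 8 ER genes in spleen (red) and blood (blue), with circles for mouse 1, triangles for mouse 2 and a bar at the mean of 2 arrays. The spleen arrays of Canx, Pdia6, Rpn2 and Ssr2 lie above the blood arrays, those of Calr and Xbp1 overlap with blood, those of Hspa5 lie just above it and those of Atf6 below it.

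Of the enzymes that form disulfide bonds, 3 of 6 were higher in spleen in both mice (background 38.5%) and 1, Pdia4, was lower in both (background 25.1%). Pdia6 had 936 and 1024 in spleen, against 683 and 684 in blood, and differed by 0.51 ± 0.11 (adjusted p = 0.218). Pdia3, which works with Canx and Calr on glycoproteins, had 398 and 509 in spleen, against 288 and 344 in blood, and differed by 0.50 ± 0.16 (adjusted p = 0.343). Neither gene overlapped between tissues. P4hb, the classical protein disulfide isomerase, differed by 0.24 ± 0.11. Pdia4 had 323 and 354 in spleen, against 327 and 375 in blood (-0.05 ± 0.13). The tissues overlapped, and its other, dim probe set was also lower in both mice, with a mean difference of -0.45. The oxidases that recharge these enzymes, Ero1a and Ero1b, differed by 0.08 ± 0.14 and 0.00 ± 0.13, with opposite signs in the mice. Pdia6 and Pdia3 each have a second, dimmer probe set that was not higher in both mice, and with the mean of all probe sets their differences were 0.12 and 0.14.

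For the sensors of ER stress and Xbp1 the median was 0.00 by the brightest probe sets, with 0 of 4 higher in both mice (background 38.5%). When every probe set of a gene was averaged, Eif2ak3 fell below the brightness filter. The median of Atf6, Xbp1 and Ern1 was then 0.16, from values of 0.20, 0.16 and 0.02. That is the same as the median of all members under that setting, so the value near 0 depends on the probe set used. Atf6, the sensor that is cut to release a transcription factor, had 241 and 221 in spleen, against 260 and 268 in blood (-0.18 ± 0.11, 95% interval -0.46 to 0.10). Its other 2 probe sets, which are dimmer, lay higher in spleen in each mouse, with mean differences of 0.28 and 0.50, so its direction depends on the probe set. Xbp1, the factor made active by Ire1 splicing, had 3680 and 3516 in spleen, against 3412 and 3551 in blood (0.05 ± 0.11). The other 3 probe sets of Xbp1 were higher in both mice, with mean differences from 0.17 to 0.24. The array does not give the spliced share of Xbp1 as such. Eif2ak3 (Perk) had 272 and 218 in spleen, against 221 and 243 in blood, and Ern1 (Ire1) had 584 and 422 in spleen, against 535 and 487 in blood. In both genes spleen was the higher tissue in mouse 1 and the lower in mouse 2. Of the 5 probe sets of Ern1, 2 were lower in spleen in both mice, with mean differences of -0.06 and -0.32. Both were above the filter. Its dimmest probe set, below the filter, was the 1 that was higher in both, with 0.52. Of the 3 probe sets of Eif2ak3, 2 were higher in both mice, each below the filter. The averages of Atf6 and Ern1 given above thus include probe sets below the filter.

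Genes of ER-associated degradation had a median of 0.07, and 1 of 3 was higher in both mice (background 38.5%). That median was 0.028 without the blood array of mouse 1, 0.041 without the spleen array of mouse 1, 0.10 without the blood array of mouse 2, 0.11 without the spleen array of mouse 2 and 0.018 with quantile normalization. Edem1, a lectin that directs misfolded glycoproteins to degradation, had 188 and 164 in spleen, against 138 and 175 in blood, so that blood of mouse 1 was the low array. Herpud1, a stress-induced part of the degradation complex, had 782 and 756 in spleen, against 715 and 754 in blood (0.07 ± 0.11). Sel1l, the adaptor of the degradation ligase, had 575 and 488 in spleen, against 547 and 517 in blood, with no common direction in the mice. Its other 3 probe sets above the filter were higher in spleen in each mouse, with mean differences of 0.20, 0.25 and 0.28. Whether the groups of genes differ from each other was not tested.

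The 8 members with an ERSE spanned most of the range of the list. All 8 were tested, 7 were higher in both mice (background 38.5%), and their median difference was 0.26, from 0.00 for Ero1b to 0.73 for Canx. The 24 other tested members with a promoter in the table had a median of 0.15, with 15 higher in both mice. Outside the list, 7 tested genes held an ERSE, 0 of them were higher in both mice, and their median difference was -0.04. No test of these differences was made.

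**Figure D3:**
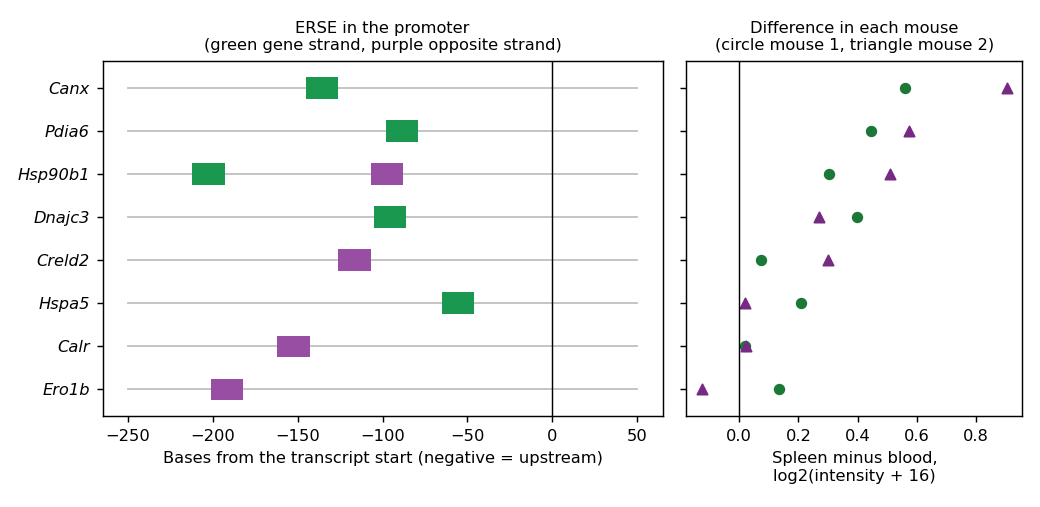
Left, position of the ERSE in the promoters of the 8 ER genes that hold it, in bases from the transcript start, with green for the gene's strand and purple for the opposite strand; right, the difference of spleen minus blood in log2(intensity + 16) of the same genes, with circles for mouse 1 and triangles for mouse 2. Differences run from 0.73 for Canx to 0.00 for Ero1b, and Hsp90b1 holds the element at both -212 and -107.

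Over all probe sets the picture was similar. Of the 86 probe sets of these genes above the brightness filter, 58 were higher in spleen in both mice and 9 lower, beside a background of 39.9% and 25.2% of 18952 such probe sets. The 49 probe sets that were not used as the main value gave 32 higher and 7 lower, with a median difference of 0.18. These probe sets share the gene with a main one and are not independent of it. Across the 37 tested genes the differences in mouse 1 and mouse 2 correlated at r = 0.62, and across all tested genes at r = 0.35. This r is across genes, which share the 4 arrays.

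**Figure D4:**
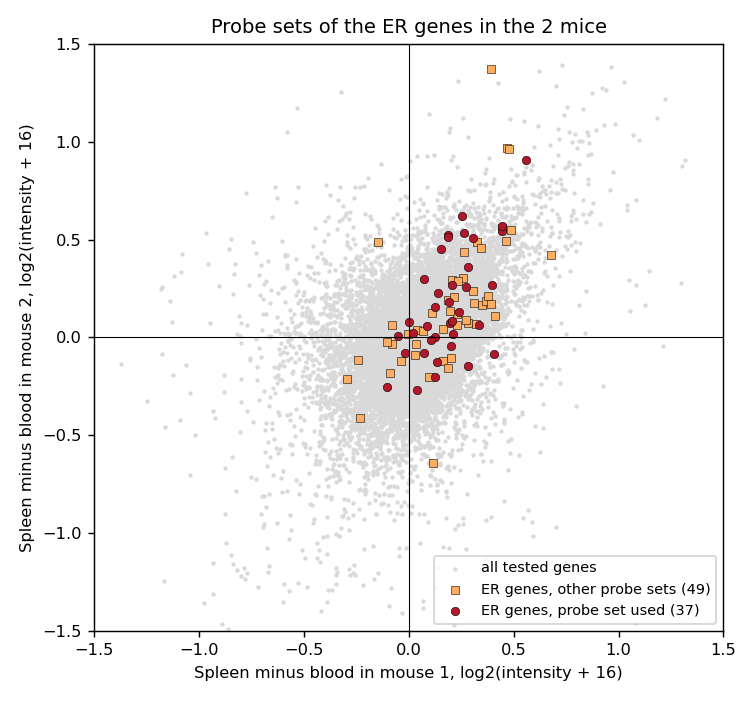
Difference of spleen minus blood in log2(intensity + 16) in mouse 1 (horizontal) and mouse 2 (vertical), for the 37 main probe sets of the ER genes (red circles), their 49 other probe sets above the filter (orange squares) and all tested genes (grey; 11614 in all, axes limited to 1.5 on each side). Of the 86 coloured points, 58 lie above 0 on both axes.

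Other genes of the pathway, from a list of 83, gave smaller numbers. They were not chosen for how they moved, but earlier results of these data were known when the list was made. Of 74 tested, 36 were higher in spleen in both mice (48.6%, background 38.5%) and 16 lower in both (21.6%, background 25.1%), with a median difference of 0.08. With limma, 0 passed over all genes, and at an unadjusted p under 0.05 there were 10 higher (13.5%, background 8.12%) and 2 lower (2.7%, background 4.31%). Among tested genes at least as bright as the median member, the comparison added after the data were seen, 30 were on this list. Of them 21 were higher in both mice (70%, background 50.4%) and 5 lower in both (16.7%, background 19.7%). The further oligosaccharyltransferase subunits and glucosidases were higher in both mice in 6 of 8 cases, with a median of 0.23. Genes of signal recognition, signal peptide removal and other translocation were so in 10 of 15, with a median of 0.11. Among them the signal peptidase subunit Spcs3 had 2817 and 2987 in spleen, against 2123 and 2028 in blood (0.48 ± 0.11, adjusted p = 0.227), and Spcs1 had 3221 and 3198 in spleen, against 2444 and 2266 in blood (0.44 ± 0.11, adjusted p = 0.260). For both, the spleen arrays were alike and above both blood arrays.

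Further folding enzymes had a median of 0.06, with 6 of 14 higher in both mice, although Hspa13, an ER-associated Hsp70 relative, had 500 and 440 in spleen, against 324 and 318 in blood (0.52 ± 0.12, adjusted p = 0.222). Further degradation genes had a median of 0.05 and genes of ER exit and retrieval one of 0.07, each with 6 of 13 higher in both mice (background 38.5%). Genes of the wider stress response had a median of -0.05, with 2 of 11 higher and 7 lower in both mice (background 38.5% and 25.1%). Of these, Ppp1r15a, which restores translation after Perk signalling and is also an early response gene, had 300 and 257 in spleen, against 541 and 606 in blood. Its difference was -1.0 ± 0.13 (adjusted p = 0.140, a value shared by 47 genes and the smallest of all tested), and the groups were far from overlap. Creb3, an ER-anchored transcription factor, differed by -0.19 ± 0.12, and Srp54b, a gene of the signal recognition particle, by -0.36 ± 0.13. Srp54b is one of several near-identical copies, so its probe set may read more than 1 gene. The stress factors Ddit3 and Atf4, named after their values were seen, differed by -0.15 ± 0.12 and -0.06 ± 0.12. The 2 genes of the wider stress response that were higher in both mice were Nfe2l2 (0.36 ± 0.12) and Mbtps2 (0.12 ± 0.14), also named after their values were seen.

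**Figure D5:**
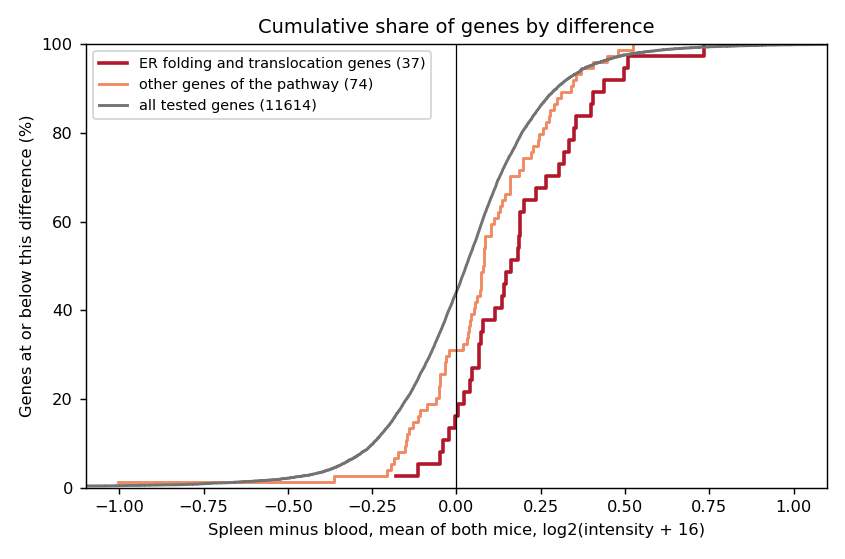
Cumulative share of genes (%) by the mean difference of spleen minus blood over both mice in log2(intensity + 16), for the 37 ER folding and translocation genes (dark red), 74 other genes of the pathway (orange) and all 11614 tested genes (grey). The medians are 0.16, 0.08 and 0.03, and the axis ends at 1.1 on each side.

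Between the animals, no member was 1.5-fold or more apart between the mice, in one direction, in spleen and blood alike, which at a background of 0.594% of all tested genes says nothing particular of these genes, and with 1 animal per side there is no test. Mouse 2 was higher than mouse 1 in both tissues for 10 members (background 27.4%) and lower in both for 7 (background 30.7%). Both counts are near or below the background. The tested members with the largest common difference were Pdia3, at 0.34 in spleen and 0.24 in blood, Creld2, at 0.41 in spleen and 0.18 in blood, and Uggt1, at 0.15 in spleen and 0.17 in blood, each as mouse 2 minus mouse 1 in log2(intensity + 16). The dim, untested Sdf2l1 had larger ones, at 0.70 in spleen and 0.36 in blood.

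Markers of other cells were set beside these results. Plasma cells, which are rich in ER proteins, share a list with B cells, of which 11 of 12 genes were on the array and 4 were above the filter. Its summed intensity was 2674 and 2421 in spleen, against 2744 and 2324 in blood, so the tissues overlapped. Most of that sum was Sdc1, a surface proteoglycan of plasma cells and other cells, with 1617 and 1400 in spleen, against 1662 and 1232 in blood. The immunoglobulin heavy chain Ighm had 408 and 407 in spleen, against 347 and 412 in blood. The immunoglobulin joining chain Jchain was at 31.2 and 31.2 in spleen, against 23.8 and 33.4 in blood, and Cd79b and Pou2af1 did not exceed 24.1 on any array. The granulocyte list, with 11 of 12 on the array, summed to 3904 and 1149 in spleen, against 6554 and 16196 in blood, and was thus lower in spleen. The T and NK cell list, with 13 of 13, summed to 9269 and 5912 in spleen, against 7926 and 11225 in blood. The macrophage and monocyte list, with 10 of 11, summed to 2236 and 1113 in spleen, against 1532 and 3419 in blood. Its median difference of spleen minus blood was 0.58 in mouse 1 and -0.39 in mouse 2. Its C1qa was below 0 on 3 arrays but at 132 in spleen of mouse 1. C1qb had 273 and 60.8 in spleen, against 30.9 and 62.2 in blood, and C1qc had 231 and 71.7 in spleen, against 29.7 and 37.3 in blood. The stroma and endothelium list, with 9 of 9, summed to 2699 and 3252 in spleen, against 2188 and 2870 in blood, most of it Col1a2, while Pdgfrb did not exceed 7.78. No list had a gene at 0 on every array. The megakaryocyte list, with 9 of 11, was higher in spleen, at 19681 and 21192, against 17048 and 16918 in blood. Most of that sum was Pf4 and Itga2b. The median difference of spleen minus blood over the 9 genes was 0.41 in mouse 1 and 0.44 in mouse 2. It was thus larger than that of the tested ER genes, at 0.19 and 0.09. The part of any of these lists in the ER gene differences was not tested.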

How the data were processed

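RNA of 4 sorted blast samples was measured on Affymetrix mouse arrays, with biotinylated cRNA per the labels' protocols. The authors deposited 1 linear intensity per probe set and array, judged by the range of the numbers. Their probe summary, background step and scaling are among the details not given in the sources used here. Negative intensities made up 1.60% to 2.17% of an array and were replaced by 0. With no further scaling, log2(intensity + 16) was analysed. Of 45101 probe sets, 34945 had 1 gene in the platform annotation, 932 several and 9160 none, and 64 were controls. Symbols were updated through Entrez identifiers with RefSeq (GRCm38.p6), where 34741 one-gene probe sets were found.

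The contrast of spleen and blood was fitted with limma 3.58.1 in R 4.3.3 (lmFit, eBayes, two-sided) on all 11614 tested genes, with tissue as the sole term and Benjamini-Hochberg adjustment over all of them at 0.05. Errors are standard errors of this fit. Mouse pairs the arrays, as spleen and blood of one number come from one animal per the labels; same-mouse deviations from the tissue means correlated at r = 0.10 across genes. The p-values rest on the spread between 2 mice within each tissue, moderated over all tested genes, and leave out the pairing by mouse. The mice share a leukemia designation, and the number of arrays limits the precision. The fit was tried on simulated data without mouse pairs. The planted changes were larger than the difference of any member, so the trial says nothing of differences as small as theirs. The members and lists were chosen with earlier results of these data known. Genes given array by array were the 2 with the largest difference per role group, the 5 largest common differences each way (2 members were lower in both mice), the 3 largest opposite ones, the 3 largest between mice, and 6 well-known members; Sel1l and Sdf2l1 were added after their values were seen. Alternatives changed the scaling, offset, brightness filter, probe set choice, mouse block, prior and arrays.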

Additional observations from a re-analysis of the deposited data

Results flagged for a closer look

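In 2 role groups the median difference of spleen minus blood had opposite signs in the mice. For the stress sensors and Xbp1 it was -0.17 in mouse 2 and 0.12 in mouse 1, a gap of -0.29. For the degradation genes it was -0.08 in mouse 2 and 0.13 in mouse 1, a gap of -0.21. The groups hold 4 and 3 genes, each tissue of each mouse is 1 array, and the difference was not tested.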

How the results depend on the processing

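The median difference of the members stayed above 0 under each alternative, between 0.11 and 0.21, and that of the related list between 0.02 and 0.12. Fitting mouse as a replicate block gave 11 members with an unadjusted p under 0.05 and 0 genes over all; at that p Ddost was lost (0.0581, against 0.0497 without the block), Dnajc3 (0.0269) and Ssr3 (0.0488) were gained, and no adjusted call changed. Letting the prior follow intensity gave 45 genes over all, 1 of them a member (Canx), and leaving out 1 array gave from 0 to 20 genes, the 20 without spleen replicate 1. Members with an unadjusted p under 0.05 numbered 5 with quantile normalization and from 3 to 9 when 1 array was left out. Members lower in both mice numbered 1 with array centring and 5 with quantile normalization, against 28 and 22 higher. The chaperone median was 0.18 with array centring, 0.19 with the mean of all probe sets, 0.16 with no filter, 0.086 with quantile normalization, and from 0.10 to 0.18 without 1 array. The disulfide enzyme median lay between 0.13 and 0.23 without 1 array, and that of the stress sensors between -0.16 and 0.13. The latter was -0.04 with quantile normalization and 0.16 with the mean of all probe sets, where Eif2ak3 was below the filter and not counted. Signs turned for Atf6, the lowest member at -0.18, to 0.20 with the mean of all probe sets, and for genes nearer 0: Ern1 (0.019) with that mean, Ern1 (0.0047) with array centring, Calr (-0.020) and Xbp1 (-0.0017) with quantile normalization. Without 1 array, Eif2ak3 lay between -0.082 and 0.22, Pdia4 between -0.14 and 0.044, Ern1 between -0.27 and 0.19, Creld2 between -0.018 and 0.39, Uggt1 between -0.014 and 0.16, Calr between -0.012 and 0.055. The cause was not tested.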
